A study of Mus musculus with 3 samples.

Results

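Imprinted genes are transcribed mainly from the copy inherited from the mother or mainly from the copy inherited from the father, and 42 of them, among them the non-coding RNA genes H19 and Meg3, were followed in RNA from sorted cells of the mouse leptomeninges. They were chosen by name among mouse imprinted genes, with earlier results of these data known. All 42 had a row among the 46983 gene rows of the count table. They lie in 18 loci on 11 chromosomes, with 16 of them on chromosome 7. By what is known of them in other work, 20 are expressed from the paternal copy, 10 from the maternal copy, and in 12 the active copy depends on the tissue or the transcript. The 3 libraries formed 1 group, the pia-enriched fraction of vehicle-treated mice, and no other group was available for comparison.

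The parental copies are distinguished by DNA methylation laid down in the egg or the sperm at imprinting control regions. This mark is kept in the body's cells after fertilization. Many imprinted genes act on growth: paternally expressed ones such as Igf2 tend to promote it and maternally expressed ones such as H19 and Cdkn1c tend to restrain it. In the adult rodent brain Igf2 is made chiefly by the leptomeninges and the choroid plexus, where it is known to be transcribed from both copies. Counts per gene hold no information on alleles, so the parental copy behind each value below was not measured.

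The leptomeninges, the thin membranes on the brain's surface, were dissected and dissociated, and the cells were sorted by flow cytometry. From each sample 2 ng of total RNA, with an integrity number of 9.7 to 10, was amplified over 12 cycles, and 10 ng of cDNA went through 8 more cycles of PCR before paired 50 bp sequencing. The labels give neither the agent that the vehicle accompanied nor the strain, age or sex of the mice, the sorting markers, or whether the 3 libraries came from separate animals. The p-values therefore concern only the spread between these 3 samples, which may be technical. They ask whether a gene's spread exceeds that of genes of its level, as estimated from the same 3 libraries. A gene that did not pass may thus still differ between libraries.

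Library 1 held 21002860 gene counts, library 2 held 28704952 and library 3 held 25338616, and levels are given as CPM, counts per 1000000 of scaled library size. A count of 0 allows up to 3 counts, or 0.152, 0.101 and 0.116 CPM, and these limits cover counting error only. Fibroblast markers were high in every library, at 23467, 29100.1 and 25292 CPM summed over 6 genes, and the 7 leptomeningeal fibroblast markers summed to 1645, 1679.8 and 1727 CPM. Markers of other cells differed between libraries: the 7 choroid plexus epithelium genes summed to 111, 3248 and 4932 CPM, the 8 macrophage and microglia genes to 16.5, 259 and 731 CPM and the 6 lymphocyte genes to 2.68, 53.8 and 62.1 CPM, so library 1 held the least of each. Library 1 also had the lowest share of mitochondrial counts (0.918%, against 3.60% and 3.46%), and library 2 had the highest share of reads outside genes (11.8%, against 7.20% and 7.68%). The erythroid, astrocyte, endothelial and pituitary marker sums, by contrast, were highest in library 1 and are listed with the data processing. The median of the astrocyte markers, however, was lowest there, and only 1 of the 5 pituitary genes passed the filter on low counts.

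The 42 imprinted genes together took 0.313%, 0.336% and 0.291% of gene counts in libraries 1, 2 and 3, a mean of 0.313% ± 0.0226 (SD, n = 3). H19 alone supplied 33.3% ± 5.21 (SD, n = 3) of these counts; without it the share was 0.210%. The next largest contributors were Gnas with 8.94%, Grb10 with 8.53% and Peg3 with 6.62% of the counts. By mean level, 9 genes reached 100 CPM, 17 lay between 10 and 100 CPM, 9 lay between 1 and 10 CPM and 7 lay below 1 CPM. Only Kcnk9, a potassium channel gene, had no count in any library. Of the 42 genes, 36 passed the filter on low counts and were tested for a spread between libraries beyond that of genes of their level.

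To compare levels between genes, counts were divided by exon length, giving CPM per kilobase of exon (RPKM). H19 stood far above the rest with 421 ± 48.8 RPKM (SD, n = 3), rank 92 among the 14375 genes ranked. Ndn, Grb10, Gnas, Impact, Peg13 and Blcap followed, with means from 34.6 down to 21.4 RPKM. Cdkn1c, Osbpl5, Snrpn, Nnat, Peg3, Trappc9, Plagl1 and Sgce formed the next stretch, from 19.9 down to 10.9 RPKM. In the order of the 35 genes with a mean of at least 1 CPM, H19 and Ndn were the only neighbours of 34 pairs whose library ranges did not overlap. Overlapping ranges do not preclude a steady order within libraries: Ndn exceeded Grb10 in each of the 3, with 36.9, 36.6 and 30.3 against 28.0, 33.3 and 26.9 RPKM.

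**Figure D1:**
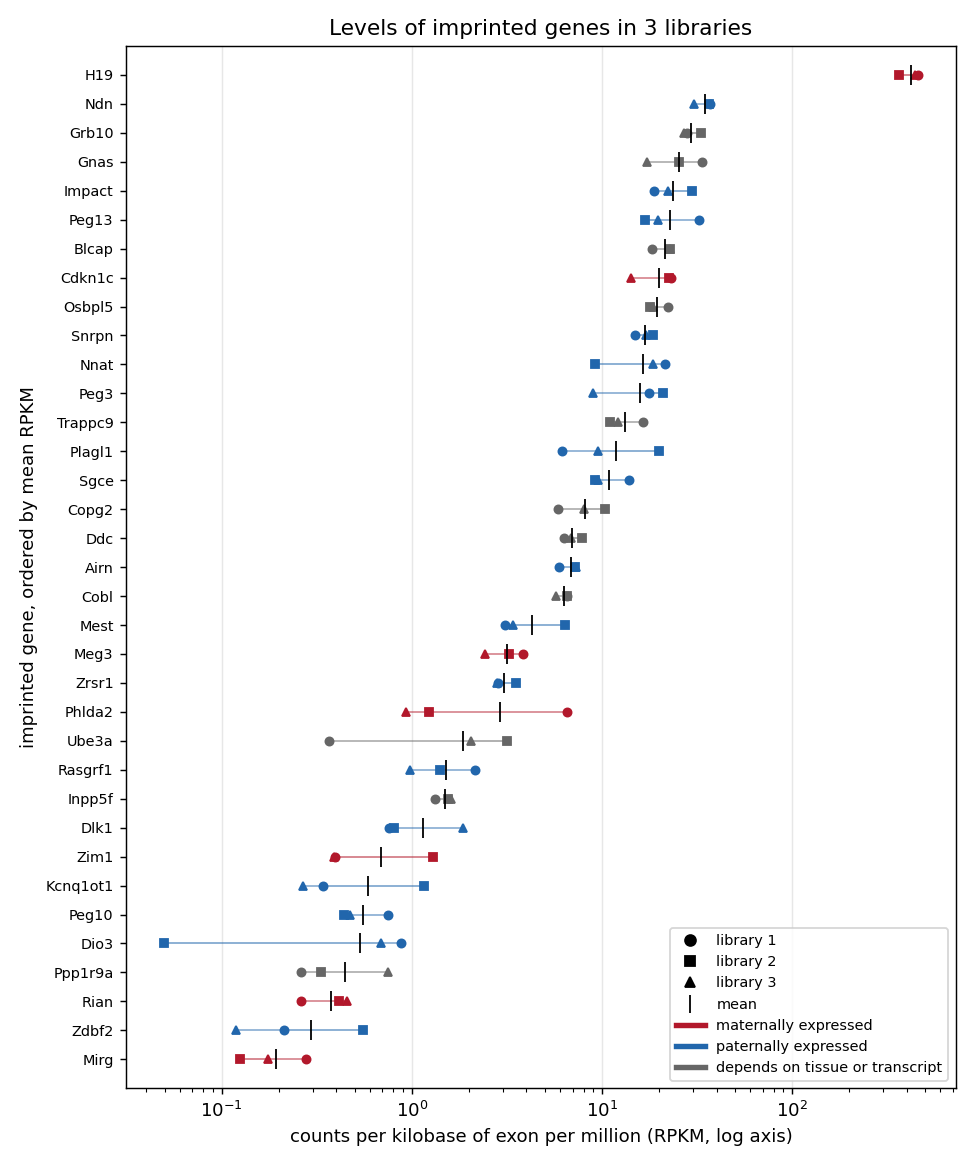
Level of each imprinted gene with a mean of at least 1 CPM in the 3 libraries, as RPKM on a log axis; marker shapes are libraries, the tick is the mean and colours show the known expressed allele. H19 stands alone at the right with a mean of 421 RPKM, and the other genes form a continuous series with means of at most 34.6 RPKM.

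H19, the non-coding RNA of the H19-Igf2 domain (ENSMUSG00000000031.15; chromosome 7, 142575529 to 142578143, minus strand, GRCm38), had 1126, 900.3 and 1084 CPM in libraries 1, 2 and 3. Its mean was 1037 ± 120.0 CPM (SD, n = 3), and the libraries differed by at most 0.32 on the log2(CPM + 1) scale. The neighbouring Igf2, a fetal growth factor that shares its imprinting control region with H19, had 5924, 4202 and 3137 CPM, highest in library 1 and lowest in library 3. Per kilobase of exon, Igf2 exceeded H19 in every library: the log2 ratio of H19 to Igf2 was -1.18, -1.005 and -0.32, a mean of -0.83 ± 0.46 (SD, n = 3). Both were among the most abundant RNAs, Igf2 at rank 45 and H19 at rank 92 by RPKM.

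H19 RNA is also the precursor of a microRNA, miR-675, whose mature strands are shown because they are the part of the transcript with a known small RNA product; RefSeq places them at chr7:142577112-142577133 and chr7:142577078-142577099 on the minus strand (GRCm38.p6).
Capitals mark the seed, bases 2 to 8, which pairs with target messages.
mmu-miR-675-5p: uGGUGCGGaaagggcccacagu
mmu-miR-675-3p: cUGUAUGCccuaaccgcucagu
The table's own row for Mir675 had 0 counts in every library, as did all 13 rows examined for microRNAs carried in imprinted transcripts.
Reads in the exonic 84 bp that H19 shares with Mir675 can be assigned to either gene or to none, and the protocol was not one for small RNA, so these zeros do not measure the mature microRNAs.

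In the Dlk1-Dio3 domain on chromosome 12, the maternally expressed non-coding RNA Meg3 was the most abundant member. Meg3 (ENSMUSG00000021268.17; chromosome 12, 109541001 to 109571726, plus strand) had 69.5, 58.6 and 44.1 CPM, a mean of 57.4 ± 12.8 CPM or 3.17 ± 0.706 RPKM (SD, n = 3). Rian, a maternally expressed host of small nucleolar RNAs, had 4.75, 7.53 and 8.33 CPM, and Mirg, a host of a microRNA cluster, had 2.02, 0.907 and 1.27 CPM. Meg3 was the higher gene in every library: the log2 ratio of Meg3 to Rian per kilobase was 3.88, 2.97 and 2.42. The order of Rian and Mirg was less even, with log2 ratios of -0.09, 1.73 and 1.39. In CPM Mirg was highest and Rian lowest in library 1. With GC content and exon length trends removed, the mean ratio stayed at 1.01, while its SD went from 0.97 to 0.17. Library 1 minus the mean of libraries 2 and 3 went from -0.63 to 1.09 log2 for Rian.

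On the paternal side of the same domain, Dlk1, which encodes a membrane protein of the Notch ligand family, had 4.29, 4.54 and 10.5 CPM, highest in library 3. The log2 ratio of Meg3 to Dlk1 per kilobase was 2.34, 2.01 and 0.39, a mean of 1.58 ± 1.04 (SD, n = 3), positive in each library but smallest in library 3. Dio3, whose product inactivates thyroid hormone, had 35, 3 and 36 counts and did not pass the filter; library 2 was the low one at 0.101 CPM against 1.77 and 1.39 CPM.

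RefSeq gave 2 start windows for Meg3, each 250 bases before to 50 after a start site; the first is shown because Meg3 leads its domain and this window holds both short motifs searched for, and it lies at chr12:109540746-109541045 on the plus strand (RefSeq, GRCm38.p6).
Capitals mark TGCCGC, read on the opposite strand, the hexamer recognised by ZFP57, a zinc finger protein that protects methylated imprints.
Meg3: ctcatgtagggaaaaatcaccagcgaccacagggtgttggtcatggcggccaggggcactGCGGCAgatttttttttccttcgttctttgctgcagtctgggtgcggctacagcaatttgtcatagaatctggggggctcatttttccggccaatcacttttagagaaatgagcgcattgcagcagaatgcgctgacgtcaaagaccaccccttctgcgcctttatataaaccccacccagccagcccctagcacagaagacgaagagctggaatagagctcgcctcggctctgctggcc
The window also holds TATAAA or its reverse complement at 2 places and 13 CpG sites, whereas the other window, at chr12:109545148-109545447, holds neither motif and 1 CpG site.
Only the letters were matched, and neither binding nor methylation was measured.

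The Kcnq1 domain on chromosome 7 held both clearly expressed and nearly silent genes. Cdkn1c, a cyclin-dependent kinase inhibitor, had 47.2, 45.7 and 29.1 CPM, a mean of 19.9 ± 4.92 RPKM (SD, n = 3), lowest in library 3; 30.7% of its exon length overlaps an antisense gene, whose reads cannot be told apart from its own. Osbpl5, an oxysterol-binding protein gene, had 109.7, 87.8 and 90.7 CPM and differed little between libraries. Phlda2, a placental growth restrainer, had 7.33, 1.38 and 1.04 CPM and was high only in library 1, 6.06-fold over the mean of the others. The spread of Phlda2 had an unadjusted p of 0.00492 and an adjusted p of 0.279 (edgeR's goodness-of-fit test, Benjamini-Hochberg), so it did not pass. The channel gene Kcnq1 had 17, 0 and 0 counts and Ascl2, a transcription factor gene, had 1, 0 and 0. Kcnq1 was thus detected in library 1 alone, while the other libraries allow up to 0.101 and 0.116 CPM.

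Kcnq1ot1, the paternally expressed RNA that lies antisense in Kcnq1 and silences the domain in cis, had 31.7, 108 and 25.0 CPM (ENSMUSG00000101609.1; chromosome 7, 143203458 to 143296549, minus strand). Library 2 was 4.33-fold above library 3, while libraries 1 and 3 lay close together. Over the 3 libraries the spread did not pass, with an unadjusted p of 0.00165 and an adjusted p of 0.160 (edgeR's goodness-of-fit test, Benjamini-Hochberg). With library 1 left out it did, with an adjusted p of 0.000664 in the same edgeR test. With trends with GC content and exon length removed, library 2 minus library 3 went from 2.07 to 1.25 log2, and the adjusted p over the 3 libraries was 0.480 (edgeR). Library 1 minus the mean of libraries 2 and 3 went from -0.71 to 0.69 log2. Library 1 was then the highest and no longer close to library 3, with a range of 1.32 log2. Library 2 was also the one with most reads outside genes (11.8%), and the part of this in the Kcnq1ot1 value was not tested. Since the annotated Kcnq1ot1 is a single exon of 93092 bp, its mean per kilobase was only 0.591 ± 0.497 RPKM (SD, n = 3). The log2 ratio of Cdkn1c to Kcnq1ot1 was 6.09, 4.27 and 5.73 per kilobase, whereas without division by length it averaged -0.15, so its sign depends on that length.

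The Kcnq1ot1 start window, at chr7:143296498-143296797 on the minus strand (RefSeq, GRCm38.p6), is printed because this RNA starts inside an imprinting control region and varied most after Ube3a.
It holds 9 CpG sites and neither motif, and no letters are capitalised.
Kcnq1ot1: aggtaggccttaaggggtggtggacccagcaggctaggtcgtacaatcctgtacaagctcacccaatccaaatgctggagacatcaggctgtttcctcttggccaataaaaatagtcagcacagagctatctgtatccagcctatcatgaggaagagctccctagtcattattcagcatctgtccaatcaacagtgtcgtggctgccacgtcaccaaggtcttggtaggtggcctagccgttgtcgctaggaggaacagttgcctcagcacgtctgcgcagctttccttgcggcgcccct
No match says only that these letters are not in this window.

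**Figure D2:**
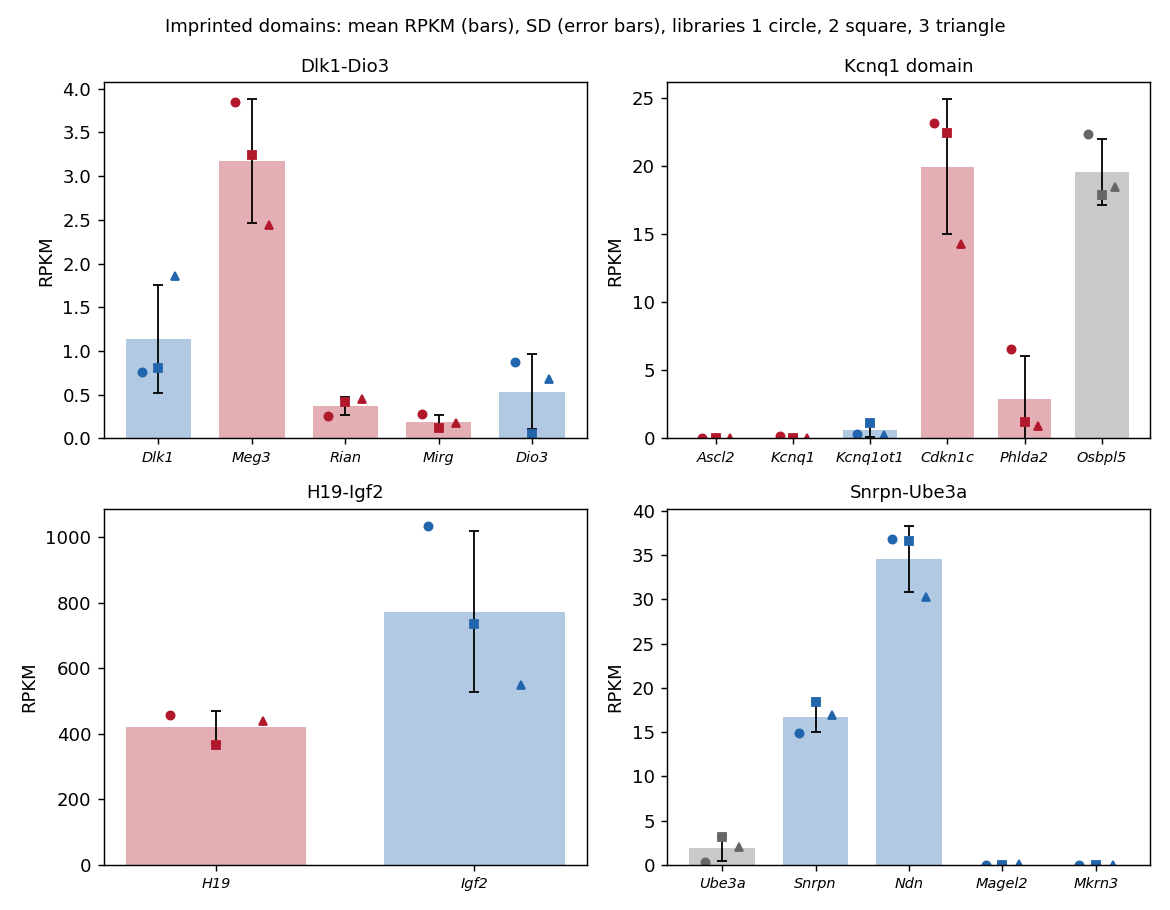
Mean RPKM of the genes in 4 imprinted domains, each on its own linear axis; bars are means over the 3 libraries and error bars are SD. Within each domain a few genes carry most of the signal: Meg3, Cdkn1c with Osbpl5, Ndn with Snrpn, and Igf2, which is shown beside H19 for comparison.

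In the Peg3 domain, Peg3, a paternally expressed zinc finger gene with roles in growth and maternal behaviour, had 236, 277 and 119.6 CPM, lowest in library 3. Its mean was 211 ± 81.8 CPM or 15.8 ± 6.14 RPKM (SD, n = 3). Usp29, which starts beside Peg3 and runs in the opposite direction, averaged under 1 CPM, between 0.463 and 0.706 CPM. Peg3 was far above it in every library, with log2 ratios per kilobase of 9.17, 9.06 and 8.45, on average 476-fold. The maternally expressed zinc finger gene Zim1 had 3.18, 10.4 and 3.16 CPM, 3.28-fold higher in library 2 than the mean of the other libraries, and its spread did not pass (edgeR adjusted p = 0.808).

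The start sites of Peg3 and Usp29 lie only 164 bp apart, so the RefSeq windows overlap by 263 bp; the Peg3 window (GRCm38.p6, chr7:6730370-6730669, minus strand) is shown because these near-shared start regions yielded such unequal RNA levels.
It holds 13 CpG sites and neither motif.
Peg3: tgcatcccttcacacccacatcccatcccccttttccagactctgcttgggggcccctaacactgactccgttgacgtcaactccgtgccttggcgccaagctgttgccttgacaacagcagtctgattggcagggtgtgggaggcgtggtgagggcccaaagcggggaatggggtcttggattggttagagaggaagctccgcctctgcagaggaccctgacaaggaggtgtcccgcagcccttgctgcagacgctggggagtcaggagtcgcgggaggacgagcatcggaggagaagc
From this stretch the genes run away from each other.

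In the Snrpn-Ube3a domain, the region linked to Prader-Willi and Angelman syndromes, expression was divided between abundant and nearly absent genes. Ndn, which encodes the growth suppressor necdin, had 136, 135 and 112 CPM, a mean of 34.6 ± 3.73 RPKM (SD, n = 3), the highest of the set after H19. Snrpn, a splicing factor gene, had 32.1, 39.9 and 36.6 CPM and was also even between libraries; 27.3% of its exon length is shared with a gene on the same strand, so its reads may be split or lost. The neighbours Magel2 and Mkrn3, which encode a ubiquitin ligase regulator and a ring finger protein, had 0, 0 and 6 and 0, 0 and 2 counts. Ndn and Magel2 are adjacent members of a related family, yet no mean ratio could be formed because Magel2 was at 0 in libraries 1 and 2; in library 3, with 6 counts of Magel2, the log2 ratio of Ndn to Magel2 per kilobase was 9.24.

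Ube3a, the ubiquitin ligase gene of Angelman syndrome (ENSMUSG00000025326.11; chromosome 7, 59228750 to 59311536, plus strand), had 7.58, 65.6 and 42.3 CPM. Libraries 2 and 3 averaged 7.12-fold above library 1, and the range was 2.96 on the log2(CPM + 1) scale. It was the 1 gene of the 36 tested that passed, with an adjusted p of 0.0349 (edgeR's goodness-of-fit test, Benjamini-Hochberg); over all 14409 genes tested, 63 passed, or 0.437%. The call ended without library 1 (adjusted p = 0.9996), library 2 (0.363) or library 3 (0.154), with a dispersion common to all genes (0.0937), and after trends with GC content and exon length were removed (0.729). Ube3a has the second lowest GC content of the 36 genes, 36.9%, and the range shrank to 1.06 log2 with these trends removed. Its exons also overlap by 8.74% those of Snhg14, the long RNA transcribed against Ube3a, which had 7, 111 and 24 counts. Snhg14 was thus also lowest in library 1. Gm44560 and 9330162G02Rik, likewise on the opposite strand, overlap 9.82% and 8.71% of the Ube3a exon length. Without strand the reads of these overlaps cannot be told apart. The choroid plexus, macrophage and lymphocyte marker sums were likewise lowest in library 1. So were those of the fibroblast, leptomeningeal fibroblast, neuron, oligodendrocyte, ependyma and proliferation lists. The erythroid, astrocyte, endothelial and pituitary sums were highest there. The astrocyte median was nonetheless lowest in library 1, at 2.80 against 3.04 and 3.76 log2(CPM + 1), and only 1 of 5 pituitary genes passed the filter. The part of these cells in the Ube3a difference was not tested. Per kilobase of exon Snrpn exceeded Ube3a in every library, with log2 ratios of 5.34, 2.54 and 3.04, a mean of 3.64 ± 1.49 (SD, n = 3). Without division by length the mean was 0.38 and Ube3a was the higher in libraries 2 and 3, so this order depends on the lengths. In bulk RNA, fewer cells that express a gene and less of its RNA per cell cannot be told apart either.

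Grb10, an adaptor protein gene that dampens insulin and growth factor signalling, was among the most abundant imprinted genes, with 254, 303 and 245 CPM and a mean of 29.4 ± 3.43 RPKM (SD, n = 3). It is known for expression from the maternal copy in most tissues and from the paternal copy in neurons. The 9 neuron markers summed to 119, 156 and 174 CPM, and the part of neurons in the Grb10 values was not tested. Its neighbours were lower and even: Cobl, an actin nucleator gene, had 53.6, 53.3 and 46.8 CPM, the smallest range of all 36 tested genes at 0.19 log2. Ddc, which encodes aromatic amino acid decarboxylase, had 28.0, 34.9 and 30.5 CPM.

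Gnas, the gene of the stimulatory G protein alpha subunit and of several imprinted alternative transcripts, had 375, 283 and 193 CPM, highest in library 1 and lowest in library 3. Its counts pool transcripts from both parental copies, and 13.1% of its exon length overlaps a gene on the opposite strand. In the Peg13 domain, the non-coding RNA Peg13 had 152, 79.2 and 93.0 CPM and Trappc9, the trafficking gene in whose intron it lies, had 129.9, 87.7 and 96.2 CPM. Both were highest in library 1. The log2 ratio of Trappc9 to Peg13 per kilobase of exon was -0.98, -0.60 and -0.70; with the length of the longest transcript instead it averaged 0.0496, so the order of this pair is not settled.

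Sgce, which encodes epsilon-sarcoglycan, and Peg10, a gene derived from a retrotransposon, share a start region and are both paternally expressed. Sgce had 148, 97.4 and 101 CPM and Peg10 had 5.002, 2.92 and 3.16 CPM, both highest in library 1. Their log2 ratio per kilobase was 4.21, 4.39 and 4.33, on average 19.8-fold in favour of Sgce, with an SD of 0.09, or 0.56 after removal of the GC and length trends. Sgce was not called over the 3 libraries (adjusted p = 0.9997), but with GC content and length trends removed it was the 1 imprinted gene that passed (adjusted p = 0.00465, same edgeR test). With that setting 105 of all 14409 genes passed. The removal widened the range of Sgce from 0.59 to 2.11 log2, so the call depends on the removal. Ppp1r9a, the neurabin gene, had 3.79, 4.84 and 10.8 CPM, highest in library 3, and Asb4, a maternally expressed ubiquitin ligase gene, stayed below 1 CPM in each library.

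Mest, a paternally expressed gene of the hydrolase fold family, had 12.2, 25.1 and 13.5 CPM, and Copg2, a coat protein gene at its 3′ end, had 30.2, 53.0 and 41.0 CPM. Copg2 was higher than Mest in every library, with log2 ratios of Mest to Copg2 of -0.93, -0.70 and -1.23 per kilobase. Both were highest in library 2, and 912 bp of their exons overlap on opposite strands, 23.1% of Mest and 17.8% of Copg2, where reads cannot be told apart. Nnat, the paternally expressed neuronatin gene that lies in an intron of Blcap, had 39.4, 16.7 and 33.9 CPM, lowest in library 2. Blcap, an apoptosis-related gene, had 56.0, 69.6 and 69.5 CPM, lowest in library 1, so the log2 ratio of Nnat to Blcap changed sign between libraries (0.22, -1.32 and -0.30).

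Among the remaining genes, nearly all known as paternally expressed, Plagl1, a zinc finger transcription factor that restrains cell cycling, had 47.9, 155 and 74.3 CPM. Library 2 was the high one, 2.54-fold above the mean of the others, with an unadjusted p of 0.0225 and an adjusted p of 0.506 (edgeR's goodness-of-fit test, Benjamini-Hochberg). Impact, which inhibits the amino acid sensor GCN2, had 96.2, 153 and 114 CPM and a mean of 23.6 ± 5.64 RPKM (SD, n = 3), again highest in library 2. Airn, the RNA that runs antisense to Igf2r and silences it in cis, had 21.3, 26.1 and 26.3 CPM and was lowest in library 1. The receptor gene Igf2r itself, which clears IGF2 from the cell surface, had 88.1, 70.3 and 65.2 CPM, highest in library 1. Airn and Igf2r thus lay in opposite order between library 1 and the others, by at most 0.43 log2. Neither spread passed (adjusted p = 0.9997 for each, edgeR's goodness-of-fit test). With GC content and length trends removed, library 1 minus the mean of libraries 2 and 3 went from -0.29 to -0.04 log2 for Airn. For Igf2r it went from 0.37 to 0.29 log2. Zrsr1, a splicing factor gene that arose by retrotransposition, had 12.8, 15.9 and 12.6 CPM, and Rasgrf1, a Ras exchange factor gene, had 23.7, 15.5 and 10.8 CPM. Zdbf2, a zinc finger gene, had 2.68, 6.99 and 1.504 CPM, highest in library 2, and Inpp5f, a phosphoinositide phosphatase gene imprinted for some of its transcripts, had 11.01, 12.9 and 13.3 CPM. In CPM, Plagl1, Impact, Zrsr1 and Zdbf2 were highest in library 2, as were 32.8% of all genes tested, whereas Rasgrf1 was highest in library 1. None of these genes passed the edgeR test. With GC content and length trends removed, library 1 was the highest for Impact and Zrsr1, by 0.35 and 0.17 log2 over the mean of libraries 2 and 3.

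The Plagl1 start window (GRCm38.p6, chr10:13090582-13090881, plus strand, RefSeq) is shown as the counterpart to Kcnq1ot1. In CPM Plagl1 was likewise highest in library 2, although library 1 was highest for Kcnq1ot1 once GC content and length trends were removed. The Plagl1 window holds 26 CpG sites and TGCCGC on the opposite strand, in capitals.
Plagl1: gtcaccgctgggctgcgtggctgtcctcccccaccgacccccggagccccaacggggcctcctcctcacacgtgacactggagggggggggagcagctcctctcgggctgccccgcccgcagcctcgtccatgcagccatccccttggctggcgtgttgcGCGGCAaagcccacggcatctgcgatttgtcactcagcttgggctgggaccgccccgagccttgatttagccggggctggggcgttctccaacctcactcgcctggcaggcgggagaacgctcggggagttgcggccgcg
Over all imprinted genes, RefSeq gave 50 start windows of this length for 33 genes.
TGCCGC was found on either strand in 11 of the 50 (22.0%), from 10 genes, against 3813 of 32851 windows of all genes (11.6%).
TATAAA was found on either strand in 10 of the 50 (20.0%), from 8 genes, against 13.6% of all windows. The median number of CpG sites was 15 against 7.
Some windows of the same gene overlap and share their matches, as for Mest and Gnas. TGCCGC itself holds a CpG, and its share at equal CpG number was not tested. These motif matches are a description of the letters.

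By known expressed allele, the median log2(CPM + 1) was 2.03 ± 0.36 (SD, n = 3) for the 10 maternally expressed genes and 4.42 ± 0.14 for the 20 paternally expressed genes. For the 12 genes whose active copy depends on the tissue or transcript the median was 5.59 ± 0.28, and over all 42 genes it was 4.68 ± 0.10, beside 4.18 for all 14409 genes past the filter. The maternally expressed group holds both H19 and several of the lowest genes, Mirg, Asb4, Kcnq1 and Ascl2. Its median was the lowest of the 3 groups in each library (2.29, 2.17 and 1.62), and the medians kept that order per kilobase of exon, at 0.58, 2.18 and 3.10.

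The spread of the imprinted genes between libraries was close to that of genes in general: their median range was 0.66 log2, against 0.67 for all genes, and 19 of the 36 tested lay below the latter. Among the 36, 11 genes had a range above 1 log2, and 4 had an unadjusted p under 0.05 (Ube3a, Kcnq1ot1, Phlda2 and Plagl1), beside 1015 of all 14409 genes tested. No library was low or high for all: library 1 was lowest for 13 genes, library 2 for 9 and library 3 for 14. The highest value fell in library 1 for 16 genes, in library 2 for 15 and in library 3 for 5. Over all genes tested, library 1 was lowest for 40.4% and library 2 highest for 32.8%. Library 2 exceeded library 3 by more than 1 log2 for Kcnq1ot1, Zdbf2, Zim1, Peg3 and Plagl1, and the reverse held for Dlk1 and Ppp1r9a. Shares over all genes were taken only for library 1 as lowest and library 2 as highest. The other counts by library, and those above 1 log2, are descriptions without a background.

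**Figure D3:**
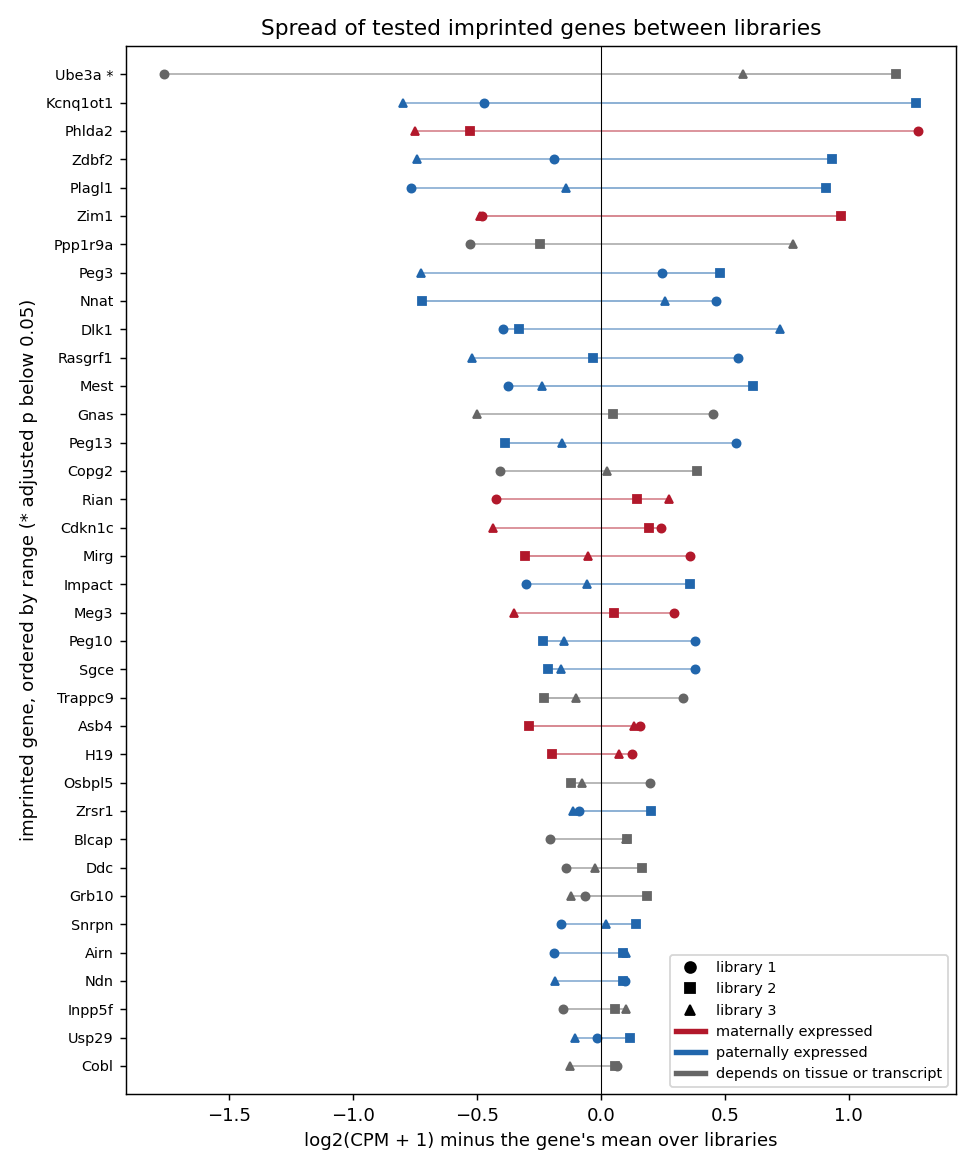
Deviation of log2(CPM + 1) from the gene's own mean in each library, for the 36 tested imprinted genes ordered by range; marker shapes are libraries and the asterisk marks an adjusted p below 0.05. Ube3a, with library 1 far to the left, has the widest range at 2.96, and Cobl the narrowest at 0.19.

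The differences between libraries moved with base composition. Across the 36 genes, the difference of library 1 from the mean of libraries 2 and 3 had a Spearman correlation of 0.59 with the GC content of the longest transcript, and -0.20 after the trends of all genes were removed. For library 2 minus library 3 the correlation was -0.28. These are descriptions across genes, which share the same 3 libraries and are not independent replicates. In CPM, genes of low GC content such as Ube3a (36.9%) and Rian (35.8%) were lower in library 1. Phlda2 (56.5%) and Gnas (57.8%) were higher there, while Sgce (38.4%) was an exception. With the trends removed, Rian was higher in library 1, by 1.09 log2 over the mean of libraries 2 and 3. The part of base composition in each gene's difference was not tested separately.

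**Figure D4:**
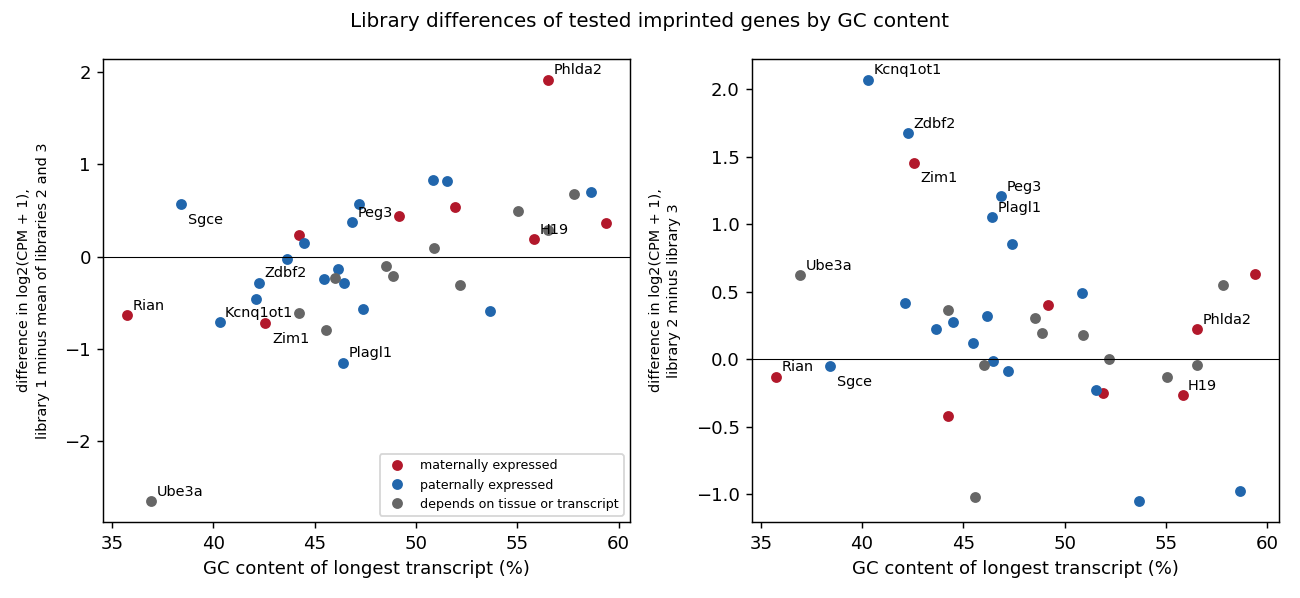
Differences between libraries in log2(CPM + 1) of the 36 tested imprinted genes against the GC content of the longest transcript in percent, for library 1 minus the mean of libraries 2 and 3 (left) and library 2 minus library 3 (right); each point is a gene, coloured by known expressed allele. On the left, points rise with GC content from Ube3a at -2.65 to Phlda2 at 1.92; on the right, Kcnq1ot1 stands highest at 2.07.

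Of 38 further imprinted genes listed for comparison, 37 had a row and 25 passed the filter; none was called by edgeR and 1, Tfpi2, had an unadjusted p under 0.05. Together the further genes took 1.25%, 1.12% and 0.921% of gene counts in libraries 1, 2 and 3, more than the 42 genes in each. Igf2 led them at a mean of 4421 ± 1406 CPM (SD, n = 3). Dcn, which encodes the matrix proteoglycan decorin and is also a fibroblast marker, had 4527, 4454 and 3523 CPM, and Cd81, a tetraspanin gene near the Kcnq1 domain, had 1783, 1146 and 1137 CPM. Below these came Nap1l4, a histone chaperone gene, with 239, 203 and 205 CPM, Gatm, a creatine synthesis gene, with 125, 172 and 326 CPM and Pon2, a paraoxonase gene, with 93.3, 126 and 140.1 CPM. Igf2, Dcn and Cd81 were lowest in library 3, whereas Gatm and Pon2 were highest there.

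For genes that set or guard imprints, the level on the log2(CPM + 1) scale had a median of 4.59 ± 0.38 (SD, n = 3), beside 4.68 ± 0.10 for the 42 imprinted genes and 3.19 ± 0.36 for the further ones. Of 21 such genes 16 passed the filter; none was called by edgeR and 1, Atrx, had an unadjusted p under 0.05. Atrx, a chromatin remodeller gene, had 38.6, 176 and 117 CPM, lowest in library 1 like Ube3a. Trim28, the corepressor recruited by ZFP57, had 82.6, 41.3 and 41.8 CPM and was highest in library 1, and the histone methyltransferase gene Ehmt2 followed the same order with 55.6, 38.5 and 39.3 CPM. Dnmt1, which copies methylation at replication, had 45.0, 37.0 and 48.8 CPM, the de novo methyltransferase gene Dnmt3a had 54.9, 67.9 and 48.4 CPM and the demethylase gene Tet3 had 57.4, 69.5 and 51.9 CPM. Zfp57 itself was near the limit of detection, with 7, 9 and 8 counts.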

How the data were processed

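The authors deposited 1 table of raw counts per gene for the 3 libraries (whole numbers, not normalized), whereas the sample descriptions point to normalized ones. The submitters' processing notes name mm10, HTSeq 0.5.3 and DESeq2 1.22.1, without roles; the aligner, annotation and strand setting are not given in the sources used here. Rows for reads assigned to no gene (45.6%, 39.1% and 39.6% of the totals) were left out. Of the gene identifiers, 46488 (98.9%) matched GENCODE release M21 (GRCm38), which gave coordinates, exon lengths and GC content. As the kit does not mark strand, reads of overlapping genes on opposite strands cannot be told apart. Exons of 15 of the imprinted genes had such an overlap, for 9 of them over more than 5% of exon length. These include Meg3 (6.79%, with Gm26906) and Zrsr1 (9.17%, with Commd1).

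With 1 group no contrast exists, so the spread between libraries was tested with edgeR 4.0.16 (R 4.3.3): the goodness-of-fit test for a negative binomial model with trended dispersions, over 14409 genes past a minimum count of 10, with TMM scaling and Benjamini-Hochberg adjustment over all of them, threshold 0.05. The test was run on simulated data with 8-fold changes in 200 genes. At the observed dispersion only the number of false calls was bounded. Recovery of the changes was required only at a lower dispersion, so the check does not show how often such changes are found in these libraries. Log2 values have a pseudocount of 1 CPM, and RPKM uses all exons of a gene together. Python 3.11.15 handled the sequences. The alternatives included other scalings (among them the size factors of DESeq2 1.42.0), filters, dispersions, pseudocount, length, removed trends with GC content and length, and each library left out.

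The members, gene lists, allele classes and marker lists were chosen with earlier results of these data known. Members with a mean of at least 1 CPM were named with every library, the others by counts or ranges; of the further imprinted genes and the imprint control genes, the 6 highest by mean CPM were named, with Igf2, Igf2r, Zfp57 and Dnmt1. Genes named outside this rule, among them Snhg14, Begain, Rtl1, Tfpi2 and the low members given by value, were chosen after their values were seen. Summed CPM of the remaining marker lists in libraries 1, 2 and 3 was 387, 237 and 290.2 for astrocytes, 265, 299.8 and 596 for oligodendrocytes, 1989.9, 1779 and 2885 for Schwann cells, 101, 65.4 and 80.8 for endothelium, 3394, 2923 and 5121 for mural cells, 819, 205 and 339.9 for erythroid cells, 7.58, 13.6 and 14.7 for ependyma, 3.18, 2.89 and 2.31 for pituitary (Prl at 0) and 5.86, 36.1 and 35.5 for proliferation.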

Additional observations from a re-analysis of the deposited data

How the results depend on the processing

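Depth limits the rarest genes, and with 3 libraries of 1 group only their spread could be tested. No paired analysis was possible because all libraries form 1 group. Of all genes, 63 were called; removing GC content and length trends gave 105, a mean of at least 10 counts gave 186, no filter gave 138, and leaving out each library gave 12 to 28. Among the imprinted genes 1 was called, and 0 with a common dispersion in edgeR, where 5 had an unadjusted p under 0.05, beside 1125 of all genes; leaving out each library gave 0 to 1. Without library 1 the called gene was Kcnq1ot1, and with trends removed it was Sgce. Without library 2 none was called, with 2 at an unadjusted p under 0.05 beside 786 of all genes, and without library 3 none, with 4 beside 860.

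With the genes past the filter alone, the median log2 level was 2.91 for maternally and 4.85 for paternally expressed genes; per kilobase the medians were 0.58, 2.18 and, for the tissue-dependent class, 3.10. The members' share was 0.232% per kilobase and 0.210% without H19. Without division by length, the mean log2 ratio was -0.15 for Cdkn1c to Kcnq1ot1, which reversed, -2.05 for H19 to Igf2, 3.26 for Meg3 to Dlk1, -1.33 for Mest to Copg2, 8.45 for Peg3 to Usp29, 2.33 for Rian to Mirg, 4.98 for Sgce to Peg10, 0.38 for Snrpn to Ube3a and -0.0115 for Trappc9 to Peg13. With the length of the longest transcript it was 2.23 for Meg3 to Rian, 8.25 for Peg3 to Usp29, 5.57 for Sgce to Peg10 and 0.0496 for Trappc9 to Peg13, which reversed. The longest-transcript length and the share without H19 were chosen after seeing the data. The changes with length follow from the lengths used; the cause of the others was not tested. The other 114 alternative values of these results stayed within their spread or 1.5 times the count.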

Other observations

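Low library 2 values in the Dlk1-Dio3 domain were not limited to Dio3. Rtl1, a paternally expressed gene derived from a retrotransposon, had 15, 1 and 7 counts, and Begain, at the edge of the domain, had 16, 1 and 14 counts, beside 35, 3 and 36 for Dio3, in libraries 1, 2 and 3. Mirg was also lowest in library 2, with 2.02, 0.907 and 1.27 CPM, and its spread did not pass (edgeR adjusted p = 0.9997). Dlk1 did not share the pattern, with 4.29, 4.54 and 10.5 CPM. Neither did Meg3, with 69.5, 58.6 and 44.1 CPM, nor Rian, with 4.75, 7.53 and 8.33 CPM. Dio3, Rtl1 and Begain did not pass the filter, so none of them was tested, and the pattern was noticed after their values were seen.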
